A study of Homo sapiens with 31 samples.

Results

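Per sequenced read, most circRNAs of differentiating H9 cells became more abundant after day 0, and a small group went the other way. The 7 protein-coding genes described here, DOCK1, GRHL2, KCNN2, LPAR3, SINHCAF, OSBPL10 and FRAS1, each gave a circRNA with more reads at day 0 than later. They were selected on that measure, the back-splice counts at day 0 against those at day 45 and day 90, so the difference between day 0 and the later libraries is a description. Where a member is said to be called lower or higher than at day 0, this names its place in the fit over all structures, which followed from the choice and is no evidence for the fall. Members were the circRNA structures named after 1 transcript of each gene (ENST00000280333, ENST00000395927, ENST00000512097, ENST00000370611, ENST00000337682, ENST00000396556 and ENST00000264895), which came to 92 of the 55371 structures in the deposited table. DOCK1 held 73 of them, FRAS1 10, GRHL2 and OSBPL10 3 each, and KCNN2, LPAR3 and SINHCAF 1 each. Only 22 had at least 10 reads over all libraries and entered the fits.

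H9 is an established human embryonic stem (ES) cell line. Cultures plated in triplicate were taken undifferentiated at day 0, or directed towards retina and harvested at day 45 or day 90, either untreated or with the growth factor IGF-1 at 5 ng/ml until day 37 and 10 ng/ml afterwards. This gave 5 conditions of 3 total RNA libraries each, 15 in all. No IGF-1 was given at day 0, all libraries came from 1 cell line, and a culture can hold several cell types, so that fewer cells of a type and less circRNA per cell cannot be told apart.

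A circRNA forms when the splicing machinery joins the donor site at the end of an exon back to the acceptor site at the start of the same or an earlier exon. The resulting ring has no free ends and is cleared slowly from cells, and rings are known to be abundant in neural tissue. Each ring is counted through reads that cross its back-splice junction, and structures are named here by donor and acceptor exon, so that E27-E2 is exon 27 joined back to exon 2 and E4 alone is a single exon closed on itself. A back-splice read identifies the junction only, and the exons inside the ring are taken from the annotation.

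The junctions that carry the difference are given for the leading structure of each gene other than GRHL2, which is the one with the most day 0 reads among those called lower. Each line reads 5′ to 3′ on the strand of the gene (GRCh37, whose coordinates are those of hg19), with the end of the donor exon in lower case and the start of the acceptor exon in capitals. For DOCK1, 2 further junctions to the same acceptor are included, since only the lower-case part tells the falling structure from them. For SINHCAF and LPAR3 the start of the acceptor exon is not coding, and 15 bases of each side are shown in place of 25.
DOCK1 E27-E2: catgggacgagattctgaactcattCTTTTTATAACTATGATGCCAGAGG
DOCK1 E10-E2: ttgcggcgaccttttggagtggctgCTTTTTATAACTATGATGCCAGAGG
DOCK1 E6-E2: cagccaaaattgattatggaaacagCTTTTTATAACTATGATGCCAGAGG
OSBPL10 E3-E2: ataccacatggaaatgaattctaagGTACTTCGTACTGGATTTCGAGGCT
FRAS1 E9-E7: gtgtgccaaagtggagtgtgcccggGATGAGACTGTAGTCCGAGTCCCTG
SINHCAF E4-E2: aatttaaacgtcataACTATTGCCCAGAAG
KCNN2 E4: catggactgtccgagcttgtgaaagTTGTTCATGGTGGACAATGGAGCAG
LPAR3 E2: tgatgactgtcttagGATGTTCACTTCTCC
In each of these the genome has AG just before the acceptor exon and GT just after the donor exon, the usual splice site letters.

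The libraries held 14992 to 17929 back-splice reads at day 0 and 42858 to 108946 later, which is 106 to 128 reads per 1000000 sequenced reads (RPM) at day 0 against 309 to 984 later. The fitted log2 change from day 0 to both untreated later groups combined had a median of 2.61 over the 12498 structures tested. RNA integrity numbers also moved with time, from 9.8 to 10 at day 0 to 7.6 to 9.1 at day 45 and 7.1 to 8.9 at day 90, and their part in any difference from day 0 was not tested. The structures of pluripotency genes summed to 0.107 ± 0.0415 RPM at day 0 (SD, n = 3) and to means of 0.00963 to 0.0232 RPM in the later conditions, but 7 of the 14 genes, among them POU5F1, NANOG and SOX2, had no back-splice read at all. Retinal genes gave 0 reads at day 0, and 12 of 15, PAX6, CRX and RCVRN included, had none in any library, so the table says little about the cell types present. Linear transcripts were not analysed here.

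At day 0 the 7 leading structures together had 0.973 ± 0.139 RPM (SD, n = 3). In untreated cultures the sum was 0.127 ± 0.0106 RPM by day 45 and 0.104 ± 0.0235 RPM by day 90. With IGF-1 it was 0.184 ± 0.106 RPM by day 45 and 0.169 ± 0.116 RPM by day 90. The day 0 libraries ranged from 0.815 to 1.08 RPM, and the highest later library, day 45 with IGF-1 replicate 2, had 0.306 RPM, so the groups did not overlap. As the total of back-splice reads rose, the 7 structures went from 0.821 ± 0.0469% of all back-splice reads at day 0 to 0.0177 ± 0.00432% at day 45 untreated.

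**Figure D1:**
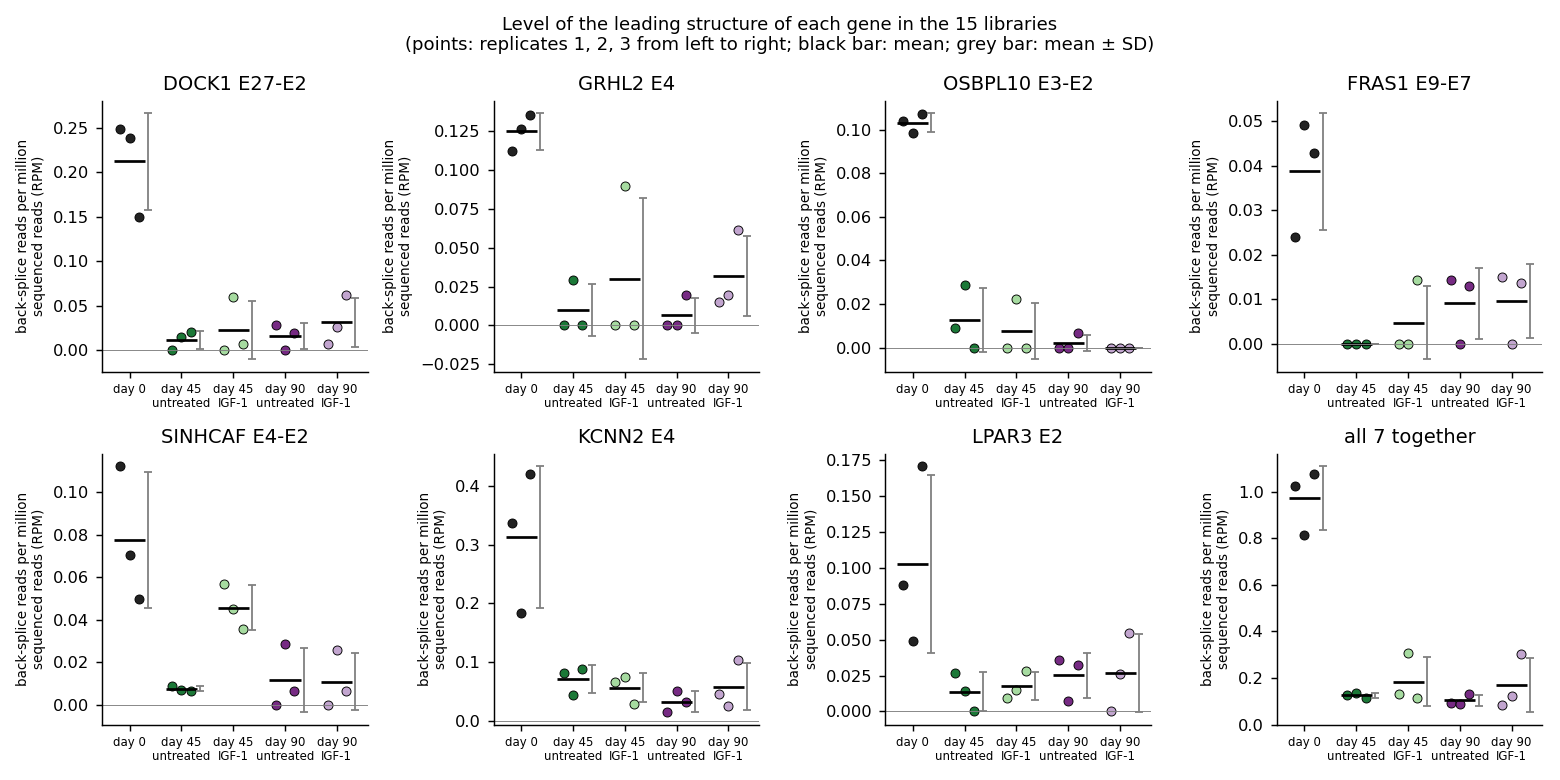
Back-splice reads per 1000000 sequenced reads (RPM, linear axes that differ between panels) of the leading structure of each gene and of all 7 together, in 5 conditions. Points are libraries, black bars means and grey bars mean ± SD of 3 libraries; for DOCK1, GRHL2, OSBPL10, FRAS1 and KCNN2 every day 0 point lies above all 12 later points, and for SINHCAF and LPAR3 some IGF-1 points reach the day 0 range.

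Every day 0 library was above all 12 later libraries for 5 of the 22 tested members, against 0.2% of all structures tested, which describes how they were chosen. They were the leading structures of DOCK1, GRHL2, OSBPL10, FRAS1 and KCNN2. In the fit of day 0 against both untreated later groups combined, 9 of the 22 were called lower, meaning a Benjamini-Hochberg adjusted p below 0.05 in the quasi-likelihood test of edgeR, where 0.448% of all tested structures were. The members were chosen on these counts, so nothing is read from that difference. These 9 were the 7 leading structures and DOCK1 E29-E2 and E25-E2. Just inside the threshold stood DOCK1 E29-E2, with 14 reads at day 0 and 5 in untreated later libraries (log2 change -2.36 ± 0.94, SE). The next member on the lower side, not close to the threshold, was FRAS1 E4-E3, with 4 and 6 reads (-1.46 ± 1.12). Its log2 change was 0.60 ± 1.34 at day 45 untreated, with 6 reads, and -3.53 ± 1.85 at day 90 untreated, with 0. One member, DOCK1 E10-E2, was called higher, where 33.5% of all tested structures were. The median log2 change of the 22 was -0.51. Relative to the median of all structures tested, the 7 leading structures lay between -6.59 and -5.06 on the log2 scale. With library sizes taken from the back-splice reads themselves (TMM factors), the median of all structures was 1.65 and 171 were called lower and 843 higher, in place of 56 and 4191. The log2 changes of the 7 leading structures on that scale were -5.46 to -3.91.

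circDOCK1:E27-E2 was the leading structure of DOCK1, whose protein activates the small GTPase Rac together with ELMO proteins and acts in cell migration and the engulfment of dead cells. It lies at chr10:128768966-128926028 on the plus strand and spans 26 coding exons, 2738 bases when spliced. Only 0.592% of tested structures had a larger genomic span than its 157063 bases, and the median was 8140.5. Day 0 replicates 1, 2 and 3 gave 31, 34 and 21 reads. Untreated libraries gave 0, 2 and 3 reads at day 45 and 4, 0 and 3 at day 90, and IGF-1 libraries 0, 8 and 1 at day 45 and 1, 4 and 9 at day 90. Every day 0 library was above every later one, and the later libraries with most reads were treated ones. Per sequenced read, day 0 was 14.5 times the untreated later level (95% exact interval 7.91 to 29.2, counting error only, since reads carry no molecular identifiers) and 7.46 times the IGF-1 level (4.67 to 12.4). The fitted log2 change was -3.81 ± 0.54 (SE).

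Per sequenced read, the other DOCK1 structures together did not fall clear of their day 0 level. Their reads summed to 0.269 ± 0.0332 RPM in day 0 cultures (SD, n = 3), 0.404 ± 0.0646 RPM by day 45 and 0.253 ± 0.0474 RPM by day 90 without IGF-1, with day 0 libraries between 0.232 and 0.296 RPM and later libraries between 0.202 and 0.583 RPM. With all structures of a gene summed, 5 of the 7 genes were called lower against 0.628% of all genes tested, and DOCK1 (-0.52 ± 0.34) and FRAS1 (-1.16 ± 0.57) were not. In each of those 5, structures other than the leading one held at most 2 reads at day 0 and 5 later. Their gene calls therefore repeat the choice of members. As a share of DOCK1 back-splice reads, which does not depend on how libraries are scaled, E27-E2 made up 45.6, 50.7 and 35% in day 0 replicates 1, 2 and 3. In the 12 later libraries it made up between 0 and 12.5%, with a mean of 4.83 ± 4.31% (SD).

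The DOCK1 structures that end on acceptor exon 2 were sorted by their donor, a grouping chosen after the values were seen. The 11 structures with donors from exon 23 to exon 46 held 137 reads in the 3 day 0 libraries and 85 in the 12 later ones. The 7 with donors from exon 4 to exon 12 held 27 and 307. Per sequenced read the first class had 0.278 to 0.377 RPM at day 0 and 0.0196 to 0.116 RPM later. The second had 0.0492 to 0.0961 RPM and 0.0852 to 0.314 RPM, so that its groups overlapped. The first class, called long rings here, made up 70.1 ± 5.62% of DOCK1 back-splice reads at day 0 (SD, n = 3) and 13.1 ± 5.21% later (SD, n = 12), and the second, short rings, 13.8 ± 3.62% and 47.4 ± 9.86%. Neither range overlapped. Long rings were at 65 to 76.1% in day 0 libraries and 6.98 to 25% later, short ones at 10.4 to 17.6% and 34.6 to 61%. Structures with another acceptor than exon 2 also had a larger share later, 36.4 ± 10% (24.4 to 53.5%) after 12.5 ± 5.07% (8.96 to 18.3%). Shares of the same total depend on each other, so a smaller share of long rings raises the rest. Of the 137 day 0 reads of long rings, 86 were of E27-E2, which was chosen for its fall. Summed, the 10 long rings other than E27-E2 were lower later too, with 0.119 to 0.128 RPM in the day 0 libraries and at most 0.0548 RPM in any later one. Of their 51 day 0 reads, E23-E2, E25-E2 and E29-E2 held 12, 12 and 14. The others had at most 4 each, too few to follow singly. The 5 structures that join exon 27 to another acceptor had 4 reads in the 3 day 0 libraries and 30 in the 12 later ones. Per sequenced read this was 0 to 0.0285 RPM at day 0 and 0 to 0.0478 RPM later, so the groups overlapped. As a share of all back-splice reads, which rose as a whole, the short rings too went from 0.0570 to 0.0315%.

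**Figure D2:**
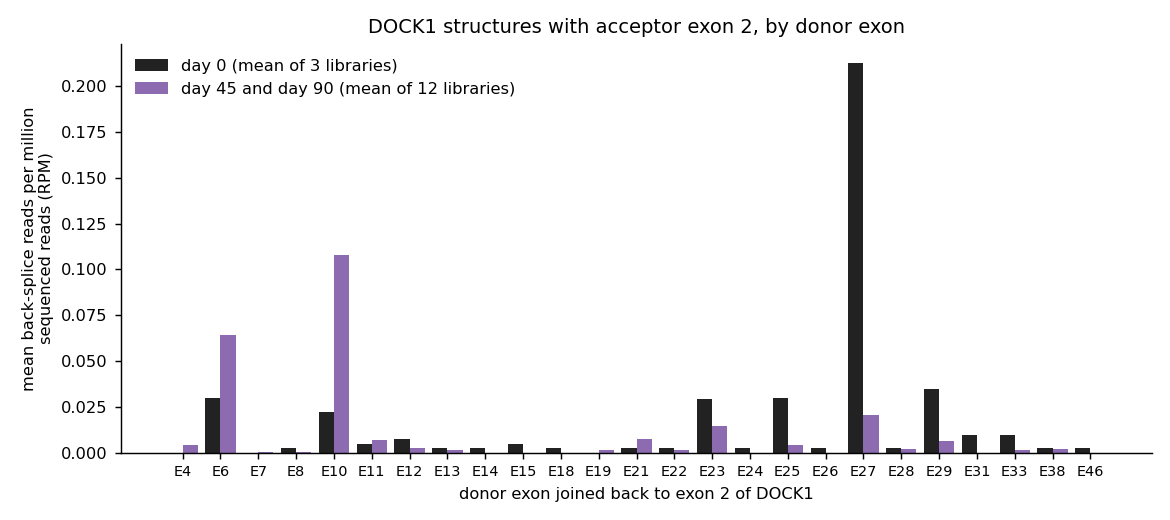
Mean back-splice reads per 1000000 sequenced reads (RPM, linear axis) of DOCK1 structures that join a donor exon back to exon 2, at day 0 (3 libraries, black) and over day 45 and day 90 (12 libraries, purple), without error bars. The tallest day 0 bar is E27, at 0.212 RPM, and the tallest later bar is E10, at 0.108 RPM.

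Among the short rings, circDOCK1:E10-E2 is 9 coding exons (chr10:128768966-128798571) and 939 bases when spliced. It had 4, 3 and 2 reads at day 0. Untreated libraries had 11, 16 and 13 reads at day 45 and 12, 12 and 12 at day 90, IGF-1 libraries 7, 22 and 9 at day 45 and 20, 20 and 24 at day 90, so that every later library was above every day 0 library. Its log2 change per sequenced read was 2.01 ± 0.59, which is -0.61 relative to the median of all structures, and with library sizes from back-splice reads it was 0.57 (TMM) or 0.03 (DESeq2 size factors) and no longer called. Its share of DOCK1 reads went from 4.56 ± 1.28% at day 0 to 28 ± 5.03% over the later libraries. circDOCK1:E6-E2, 5 exons (chr10:128768966-128788867), had 12 reads at day 0 and 106 later, and its log2 change of 0.60 ± 0.62 against untreated later libraries was not called and was -0.89 with TMM factors. Its share of DOCK1 reads was 4.48 to 7.35% at day 0 and 3.85 to 26.8% later, so the groups overlapped. circDOCK1:E25-E2 had 4, 3 and 5 reads at day 0 and 0 in all 6 untreated later libraries, at least 8.11-fold lower per sequenced read (against a floor of 3 counts over those libraries), while IGF-1 libraries held 7.

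**Figure D3:**
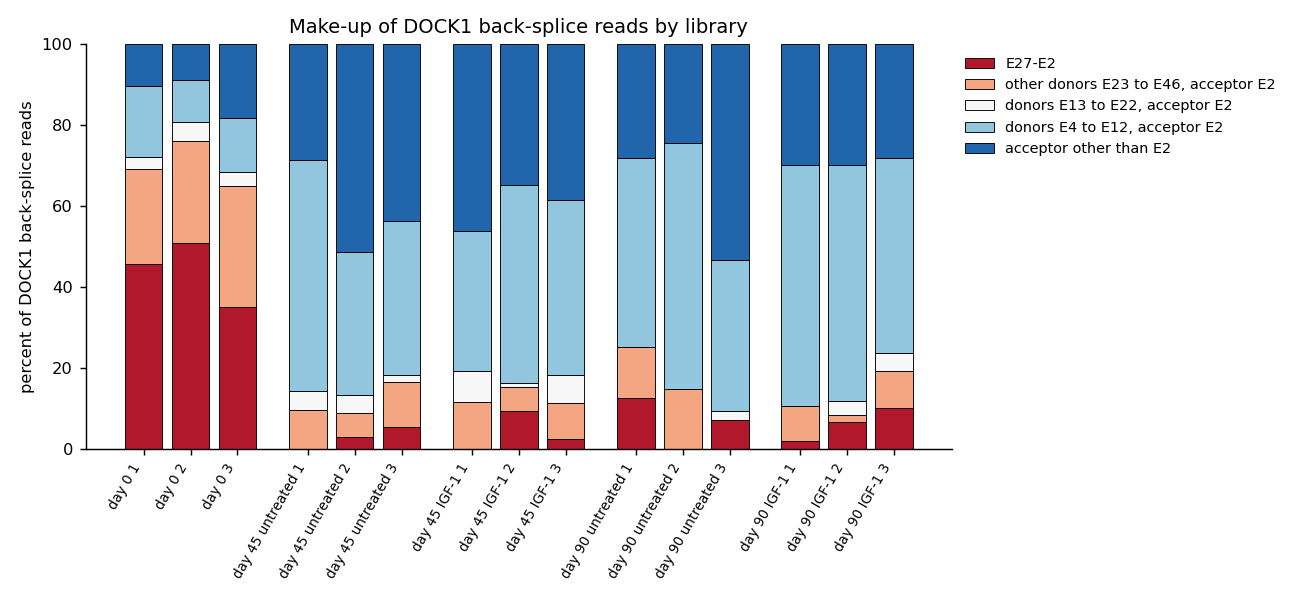
Percent of the DOCK1 back-splice reads of each of the 15 libraries held by E27-E2 (red), other structures with a donor from exon 23 to exon 46 and acceptor exon 2 (orange), donors from exon 13 to exon 22 (white), donors from exon 4 to exon 12 (light blue), and structures with another acceptor (dark blue). Red and orange together reach 65 to 76.1% in the 3 day 0 libraries and at most 25% in the others.

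The leading structures of GRHL2, OSBPL10 and FRAS1 also had day 0 libraries clear of all others, and most of their later libraries held few reads or none. GRHL2 encodes a Grainyhead transcription factor that maintains epithelial cells, and circGRHL2:E4 (chr8:102570647-102571040, plus strand) is a single coding exon of 394 bases. Day 0 libraries had 14, 18 and 19 reads. Untreated libraries had 0, 4 and 0 at day 45 and 0, 0 and 3 at day 90, and IGF-1 libraries 0, 12 and 0 at day 45 and 2, 3 and 9 at day 90. Day 45 reads thus came from replicate 2 of each arm alone, and 6 of 12 later libraries had none. Day 0 was 14.8 times the untreated later level (95% interval 6.68 to 38.6) and 3.92 times the IGF-1 level (2.40 to 6.54). These intervals pool the reads of several libraries and hold counting error only, so they leave out the spread between cultures. The log2 change was -3.76 ± 0.63, and -5.55 without day 45 untreated replicate 2 and -5.30 without day 90 untreated replicate 3. The other GRHL2 structures had 2 reads at day 0 and 1 later.

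OSBPL10 encodes a lipid-binding protein of the oxysterol-binding family. circOSBPL10:E3-E2 (chr3:31917925-31921322, minus strand) joins 2 coding exons of 256 bases together. It had 13, 14 and 15 reads at day 0, 1, 4 and 0 at day 45 untreated, and 0, 3 and 0 at day 45 with IGF-1. At day 90 it had 0, 0 and 1 reads untreated and none with IGF-1, at least 14.9-fold lower than day 0 per sequenced read (floor of 3 counts over the group). Its 3 day 0 values were the closest to each other of the 7 structures, 0.0984 to 0.107 RPM, and 8 of 12 later libraries were at 0. The log2 change of -3.98 ± 0.75 became -4.71 without day 45 untreated replicate 2 and -4.88 without day 90 untreated replicate 3. Other OSBPL10 structures had 2 reads at day 0 and 3 later.

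FRAS1 encodes an extracellular matrix protein of basement membranes, mutated in Fraser syndrome. circFRAS1:E9-E7 (chr4:79186179-79188586, plus strand), 3 coding exons of 378 bases, rested on the fewest reads, with 3, 7 and 6 at day 0. Untreated libraries had none at day 45 and 2, 0 and 2 at day 90, and IGF-1 libraries 0, 0 and 2 and 2, 0 and 2. The lowest day 0 library, at 0.0240 RPM, was above the highest later one, at 0.0151 RPM, but these values differ by 1 read. The log2 change was -3.71 ± 1.07, and -2.80 with both untreated later groups fitted as 1. As in DOCK1, other structures of the gene ran differently: over all transcripts of FRAS1 they had 14 reads at day 0 and 63 later, or 0.0141 to 0.0713 RPM at day 0 and 0 to 0.0897 RPM later, so that the groups overlapped. The share of E9-E7 in all FRAS1 back-splice reads was 58.4 ± 20.2% at day 0 (SD, n = 3) and 14 ± 18% in the 11 later libraries that had any, and the ranges, 37.5 to 77.8% and 0 to 40%, overlapped. The other tested member, E4-E3, had 4 reads in the 3 day 0 libraries and 8 in the 12 later ones. Per sequenced read its mean was 0.00944 RPM at day 0 and 0 to 0.0151 RPM in the later conditions. Its log2 change against untreated later libraries, -1.46 ± 1.12, was not called.

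KCNN2 had the most abundant structure of the 7. The gene encodes SK2, a potassium channel opened by intracellular calcium that shapes the firing of neurons. circKCNN2:E4 (chr5:113740135-113740553, plus strand) is 1 coding exon of 419 bases and the only structure of its gene in the table. Day 0 libraries had 42, 26 and 59 reads. Untreated libraries had 9, 6 and 13 at day 45 and 2, 7 and 5 at day 90, and IGF-1 libraries 7, 10 and 4 and 6, 4 and 15. It was the leading structure with reads in all 12 later libraries, and the highest of these, day 90 with IGF-1 replicate 3 at 0.103 RPM, was below the lowest at day 0, 0.183 RPM. Day 0 was 6.13 times the untreated later level (95% interval 4.30 to 8.91, counting error only), and the log2 change was -2.68 ± 0.43.

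In SINHCAF and LPAR3 the day 0 and later libraries overlapped once IGF-1 libraries were included. SINHCAF is a subunit of the SIN3-HDAC corepressor complex, and circSINHCAF:E4-E2 (chr12:31446739-31451158, minus strand) joins 3 exons of 375 bases together, 20 of them upstream of the start codon it contains. It had 14, 10 and 7 reads at day 0, 1, 1 and 1 at day 45 untreated, and 6, 6 and 5 at day 45 with IGF-1. At day 90 it had 0, 4 and 1 reads untreated and again 0, 4 and 1 with IGF-1. The highest day 45 IGF-1 library, 0.0568 RPM, exceeded the lowest day 0 library, 0.0499 RPM. Day 0 was 1.70 times the day 45 IGF-1 level (95% interval 0.912 to 3.27) and 7.86 times the untreated later level (3.53 to 19.8). Both intervals hold counting error only. The log2 change against untreated libraries was -2.91 ± 0.69, and -3.68 without day 90 untreated replicate 2.

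LPAR3 encodes a G protein-coupled receptor for lysophosphatidic acid. circLPAR3:E2 (chr1:85331068-85331821, minus strand) is a single exon of 754 bases that holds the start codon and 736 coding bases. It had 11, 7 and 24 reads at day 0. Untreated libraries had 3, 2 and 0 at day 45 and 5, 1 and 5 at day 90, and IGF-1 libraries 1, 2 and 4 and 0, 4 and 8. Day 0 replicate 3 was well above the others, and the highest later library, day 90 with IGF-1 replicate 3 at 0.0548 RPM, exceeded day 0 replicate 2 at 0.0492 RPM. The log2 change was -2.44 ± 0.60, and without day 0 replicate 3 it was -1.85 and no longer called. Neither LPAR3 nor KCNN2 had another structure to compare with, and whether their transcripts changed in amount was not tested.

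Single later conditions share the day 0 libraries, and the calls against them follow from the choice of members as well. The numbers of the 22 members called lower were 8 at day 45 untreated (0.256% of all tested), 5 at day 45 with IGF-1 (0.224%), 7 at day 90 untreated (0.328%) and 6 at day 90 with IGF-1 (0.264%). circDOCK1:E27-E2, circGRHL2:E4, circOSBPL10:E3-E2, circKCNN2:E4 and circLPAR3:E2 were among them in each of the 4 comparisons. circSINHCAF:E4-E2 was not called against day 45 with IGF-1. circFRAS1:E9-E7 was called against day 45 untreated alone, where it had 0 reads and was at least 5.18-fold lower. Called higher were 1 at day 45 untreated (40.9% of all tested), 1 at day 45 with IGF-1 (30.5%), 1 at day 90 untreated (21.7%) and 3 at day 90 with IGF-1 (28.4%). The one in every comparison was circDOCK1:E10-E2, joined at day 90 with IGF-1 by circDOCK1:E6-E2 (log2 change 1.68 ± 0.65) and by DOCK1 E23-E22, which had no day 0 read and 11 there.

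The comparisons among later libraries were not themselves used to choose the members and were tested. The later counts did enter that choice, and the leading structures were picked on low counts in untreated later libraries. Differences between IGF-1 and untreated libraries are therefore not independent of the choice. The filter of 10 reads counted day 0 reads too. OSBPL10 E3-E2, FRAS1 E4-E3 and DOCK1 E25-E2 passed it only through these, with 9, 8 and 7 reads in the 12 later libraries. Members with so few later reads could hardly be called among later conditions, so the lack of a call says little about them. Between untreated day 45 and day 90, 0 of the 22 members passed in edgeR's quasi-likelihood test with Benjamini-Hochberg adjustment (smallest adjusted p = 0.467), where 0.064% of all structures tested were lower and 0.016% higher. An unadjusted p under 0.05 was found for 2 of the 22, against 9.61% of all. These were FRAS1 E4-E3 (6 and 0 reads) and DOCK1 E21-E2 (5 and 0 reads). The largest difference in reads was that of circKCNN2:E4, with 28 reads at day 45 and 14 at day 90 (log2 change -1.10 ± 0.62, adjusted p = 0.573 in edgeR). DESeq2's Wald test also called 0 members here, between times under IGF-1 and for IGF-1 at each time.

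IGF-1 was compared with no treatment at each time. At day 45, 0 of 22 members passed (smallest adjusted p = 0.995 in edgeR, 0.016% of all lower and 0% higher), and 3 had an unadjusted p under 0.05 against 4.58% of all. The smallest of these was that of circSINHCAF:E4-E2, whose treated libraries (6, 6 and 5 reads) did not overlap with the untreated ones (1 read each), with a log2 difference of 2.44 ± 0.95 (unadjusted p = 0.0103, adjusted p = 0.995, edgeR). At day 90, 0 of 22 passed (smallest adjusted p = 1 in edgeR, 0.008% of all lower and 0% higher), and 2 had an unadjusted p under 0.05 against 4.17%. circGRHL2:E4 had 14 reads with and 3 without IGF-1 there (log2 difference 2.08 ± 0.94, unadjusted p = 0.0261, adjusted p = 1, edgeR), and 9 of the 14 came from replicate 3. The effects of IGF-1 at both times were also compared with each other, and 0 of 22 passed (smallest adjusted p = 0.875 in edgeR, 0% of all), with an unadjusted p under 0.05 for 1 against 4.82% of all.

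Under IGF-1, day 45 and day 90 differed in 0 of 22 members (smallest adjusted p = 0.9885 in edgeR, 0.008% of all in each direction), with an unadjusted p under 0.05 for 2 against 4.57%. circSINHCAF:E4-E2 had 17 reads at day 45 and 5 at day 90 (log2 change -1.91 ± 0.87, unadjusted p = 0.0286, edgeR). The share of E27-E2 in DOCK1 reads was 2.80 ± 2.73% at day 45 untreated, 3.86 ± 4.85% at day 45 with IGF-1, 6.49 ± 6.26% at day 90 untreated and 6.18 ± 4.20% at day 90 with IGF-1 (SD, n = 3 each). None of 4 comparisons between these passed (exact permutation tests, two-sided p = 0.5 to 0.9, all 0.9 after Benjamini-Hochberg adjustment, smallest possible p = 0.1).

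The exon content of the 7 leading structures was not used to choose them. Those of GRHL2, KCNN2 and LPAR3, 3 of 7, were single exons, against 5.12% of all tested structures. Those of DOCK1, OSBPL10, SINHCAF and LPAR3, 4 of 7, ended on acceptor exon 2, against 28.3% of all tested. Neither trait was particular to these genes, and the shares were not tested. Among the structures called lower outside them, SPECC1 E2 and PRKD3 E2 were single exons too, and FAM169A E5-E2 also ended on acceptor exon 2. Only circFRAS1:E9-E7 had a coding length that is a multiple of 3, and SINHCAF and LPAR3 hold the start codon. The introns next to circDOCK1:E27-E2 are 174833 bases long upstream and 120243 downstream, those next to circGRHL2:E4 5636 and 11526.

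**Figure D4:**
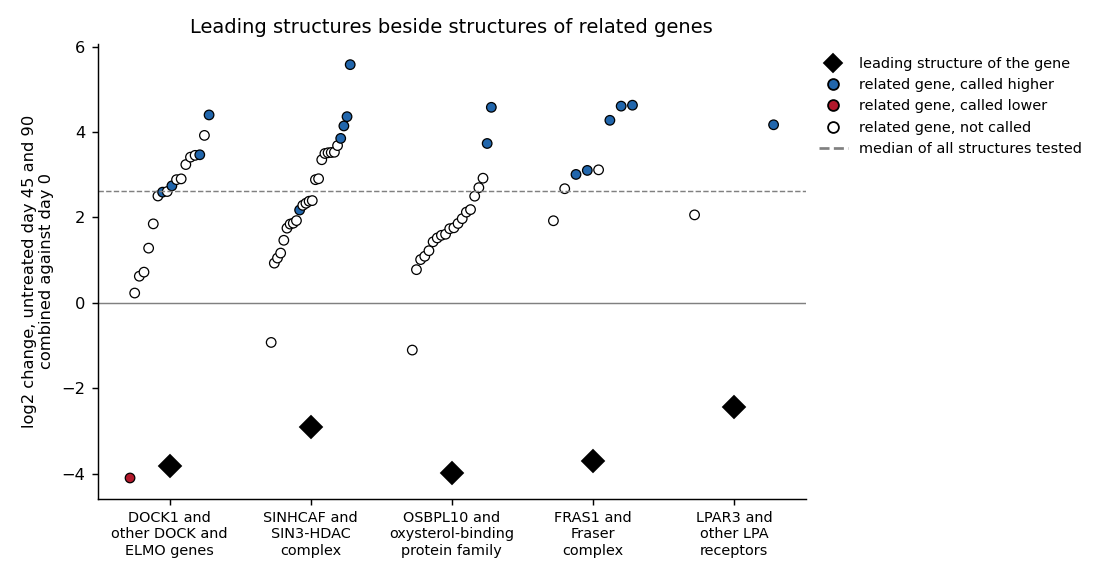
Fitted log2 change from day 0 to untreated day 45 and day 90 combined (per sequenced read, without error bars) for the leading structures of 5 genes (diamonds) and the tested structures of genes related to them (circles, blue where called higher, red where called lower). The diamonds lie between -3.98 and -2.44, and all but 3 of the related structures lie above 0.

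Genes that work with the members or belong to their families are described by counts only, beside the 33.5% of all structures called higher, the 0.448% called lower and the median log2 change of 2.61. Among the other DOCK and ELMO genes, 18 structures were tested, of which 4 were called higher and 1 lower, with a median log2 change of 2.67. The lower one was DOCK5 E50-E49, with 6 reads at day 0 and 0 in untreated later libraries, and the higher ones included DOCK4 E12-E9, with 3 reads at day 0 and 41 in untreated later libraries (2.59 ± 0.81, adjusted p = 0.00764 in edgeR). Among the other lysophosphatidic acid receptors, LPAR1 E3-E2 went from 15 reads to 576 untreated (4.17 ± 0.49, adjusted p = 2.82e-15 in edgeR), opposite in direction to circLPAR3:E2. It was 1 of 2 structures tested there, and was called higher with TMM factors (2.74) and with DESeq2 size factors (2.19) as well.

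For the SIN3-HDAC complex, of which SINHCAF is a subunit, 26 structures were tested, 5 were called higher and 0 lower, and the median was 2.39. The values of all structures tested, 33.5% higher, 0.448% lower and a median of 2.61, stand beside this family and those that follow. Among the 5 were ARID4A E10-E5, with 5 reads at day 0 and 50 in untreated later libraries (2.17 ± 0.72), and SAP130 E12-E11, with 2 and 68 (3.85 ± 0.81, adjusted p = 2.83e-05 in edgeR). Of 20 structures of the oxysterol-binding family, 2 were called higher (OSBPL2 E4-E2, 3.73 ± 1.04, and OSBPL1A E7-E4) and 0 lower, with a median of 1.75. Of 8 from the Fraser complex, the partners of FRAS1 at the basement membrane, 5 were called higher and 0 lower, with a median of 3.11. Of these, 4 were of GRIP1, which carries FRAS1 to the cell surface, such as E5-E3 with 2 reads at day 0 and 38 in untreated later libraries (3.01 ± 0.89), and 1 was FREM2 E6-E3 with 0 and 18. With TMM factors DOCK5 E50-E49 was still called lower, and of the higher calls in these families only LPAR1 E3-E2 and SAP130 E12-E11 and E13-E11 were left. With DESeq2 size factors only LPAR1 E3-E2 was. No structure of the other Grainyhead or calcium-activated potassium channel genes had enough reads to be tested.

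Of epithelial genes, the cells in which GRHL2 is known to act, 4 of 9 had back-splice reads and CDH1 had none. They summed to 0.0453 ± 0.0389 RPM at day 0 (SD, n = 3) and to means of 0.0255 to 0.0453 RPM later, differences within the spread of the day 0 libraries. Of the pluripotency list, USP44 E5-E4 was called lower, from 16 reads at day 0 to 0 in untreated later libraries, 1 of 2 structures tested. The part of either cell type in the members' fall was not tested.

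Outside the 7 genes, the structures called lower with the most day 0 reads were FIRRE E10-E5 (1084 reads at day 0, 668 in untreated later libraries), SPECC1 E2 (303 and 335), FIRRE E9-E5 (148 and 52), FAM169A E5-E2 (110 and 99) and PRKD3 E2 (103 and 81). Among the 56 called lower, circKCNN2:E4 ranked 4th by day 0 reads and circDOCK1:E27-E2 8th. Profiles over 15 libraries were compared with the mean standardised profile of the 7 leading structures, by Pearson's r of log2(RPM + 0.01). Most alike were 2 structures of chromosome X (E25-E24, r = 0.907, and E26-E24, r = 0.891). TNFRSF11A E3-E2 (r = 0.882), GASK1A E2 (r = 0.852) and DMC1 E12-E2 (r = 0.846) followed. These values share the libraries and their depth and describe the order only. The 2 on chromosome X were given no gene by the annotation lookup used here, which does not place them outside known genes.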

How the data were processed

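RNA of 15 H9 libraries was ribodepleted and sequenced as paired 100 base reads. The authors screened reads for back-splice junctions with PTESFinder v.1 against GENCODE 19 on hg19, and the deposited values are raw counts of these reads for each structure in each library, without normalisation. Library letters a, b and c in that table were read as replicates 1, 2 and 3. Canonical junction counts and 16 amplicon libraries of FIRRE were not used. Structures with at least 10 counts over all libraries were tested with edgeR 4.0.16 in R 4.3.3 (quasi-likelihood, 1 mean per condition, prior count 0.125), with the study's sequenced reads as library sizes, and p-values were adjusted by Benjamini-Hochberg over all 12498 structures. The study lists the day 90 untreated replicates 1 and 2 under 1 label, so both got the mean of those lines. Standard errors are the log2 change over the square root of F. Genes came from GENCODE 44 lifted to GRCh37, in which the named FRAS1 transcript is not listed and exon 4 of the named KCNN2 transcript is exon 8. The exons of FRAS1 were therefore matched by their ends. The script was tested on simulated data. The grouping by donor exon was added after the values were seen. Members and lists were chosen with earlier results of these data known. The genes named are the 7 members, each with its leading structure and its most abundant other one, the 5 lower structures outside them with most day 0 reads, the 5 of most similar profile, and called structures of related families. Alternatives were DESeq2 1.42.0, other library sizes and filters, and each library left out. P-values measure the spread between cultures plated in triplicate.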

Additional observations from a re-analysis of the deposited data

How the results depend on the processing

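The count of members called lower against both untreated later groups combined, 9, ranged from 6 (at least 50 counts, where only 8 members were tested) to 10 (TMM or DESeq2 size factors) over the alternatives, and from 7 to 9 with single libraries left out. The count called higher, 1, was 0 with TMM factors and 0 with DESeq2 size factors, since DOCK1 E10-E2 was then no longer called, and 1 with any library left out. An alternative added after seeing the data, with both untreated later groups as 1, gave 9. No alternative called a member among the later conditions (0 in all of them, single libraries left out included). Each leading structure kept its negative log2 change in all alternatives, and circLPAR3:E2 without day 0 replicate 3 (-1.85) was the only one to lose its call, and these calls follow from how the members were chosen. circFRAS1:E9-E7 has too few reads for the filter of 50 counts. The share of E27-E2 in DOCK1 reads at day 0, 43.8%, was 52.9% when only structures with at least 10 counts were included, and 40.3 to 48.2% with single libraries left out. With single libraries left out, its mean in untreated later libraries was 3.07 to 5.57%. For FRAS1 E9-E7 among structures of its named transcript, such means were 63.9 to 88.9% at day 0 and 22.2 to 55.6% in untreated later libraries. Single libraries, however, ran from 50 to 100% at day 0 and from 0 to 100% in the 4 untreated later ones with reads, so these groups overlapped. Pooled over all pairs of conditions, replicate numbers showed no clear pairing of libraries (correlations of deviations from the group means -0.0491 to 0.117 for the same number, -0.0860 to 0.0510 for others). Between untreated and IGF-1 libraries of day 45, however, the same number gave 0.0340 to 0.117 and others -0.0860 to 0.0240. At day 90 these were -0.00782 to 0.0553 and -0.0621 to 0.0281. The main IGF-1 tests ignored any such pairing. With the replicate block 8 members were called lower and 1 higher, and 0 were called for IGF-1 at either time. Day 0 libraries hold few back-splice reads, and a structure at 0 in a condition could be present at up to 0.0079 RPM.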
